A study of Mus musculus with 6 samples.

Results

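The 7 genes Doc2a, Doc2b, Baiap3, Unc13a, Unc13b, Unc13c and Rph3a encode C2-domain proteins that prime vesicles for release or sense the calcium that triggers it. They were taken by symbol from the 33274 gene rows of the deposited counts, each symbol had 1 row, and all 7 passed the filter on low counts. The set was chosen by gene name and function, with the differences between the lineages in these same libraries in view. The differences below are therefore a description of the members, and nothing is supported by the fact that some of them are large.

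The RNA came from the cerebral cortex of 6 wild-type ICR females aged 6 weeks and was read by RNA-seq, with 3 libraries from each of 2 lineages of this outbred stock. Their grandsires (F0) had been given saline (10 mL/kg) or methylphenidate (15 mg/kg), which blocks reuptake of dopamine and noradrenaline, under the skin for 21 days. The F0 males and then 1 F1 male from each litter were mated with untreated females, so the F2 mice themselves received no drug. The labels do not say which F2 mice shared a litter or a grandsire, so the spread between libraries may not cover all of the spread between families. The question was whether the treatment of a grandsire goes with a difference in the cortex of the grandoffspring.

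Vesicles dock at the active zone and are then primed, a step in which the MUN domain of Munc13 proteins opens syntaxin so that SNARE complexes can form. Double C2 (Doc2) proteins bind calcium with high affinity, bind Munc13, and take part in spontaneous and asynchronous release. Baiap3 (BAI1-associated protein) is a relative of Munc13 with a MUN domain that acts in dense core vesicle traffic and is known for its expression in hypothalamus and amygdala, and rabphilin, the product of Rph3a, is an effector of Rab3 on synaptic vesicles.

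Total counts lay between 23896752 and 28120640 per library, and a count of 0 allows up to 3 counts, or 0.105 to 0.124 CPM (counts per 1000000 of the TMM-scaled library size), for counting error only. The lowest count of any of the 7 genes was 44, for Baiap3 in saline replicate 2. All 11 markers of cortical excitatory neurons were tested, and among them Slc17a7, the vesicular glutamate transporter of these cells, stood at 1106 ± 48.2 CPM in the saline lineage and 1138 ± 114.5 CPM in the methylphenidate lineage (SD, n = 3 per group). Within groups, the chi-square of counts over its degrees of freedom was 13.0 to 19.9 for each pair of libraries, so none was treated as a duplicate.

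RefSeq promoter windows were found for 5 of the 7 genes. The bases before the RefSeq start of Baiap3, the member with the largest difference between lineages, are shown beside those of Unc13a, its most abundant Munc13 relative, whose means were nearly equal in the lineages. Both are on the minus strand of GRCm38.p6 and run 5′ to 3′, with 250 bases at chr17:25256365-25256614 for Baiap3 and 233 bases at chr8:71671775-71672007 for Unc13a, and capitals mark the motifs searched on both strands.
Baiap3: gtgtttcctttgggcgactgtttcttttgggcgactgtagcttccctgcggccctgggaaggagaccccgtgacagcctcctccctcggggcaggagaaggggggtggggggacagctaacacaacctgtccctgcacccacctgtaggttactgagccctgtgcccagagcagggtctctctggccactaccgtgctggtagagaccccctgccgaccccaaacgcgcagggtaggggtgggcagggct
Unc13a: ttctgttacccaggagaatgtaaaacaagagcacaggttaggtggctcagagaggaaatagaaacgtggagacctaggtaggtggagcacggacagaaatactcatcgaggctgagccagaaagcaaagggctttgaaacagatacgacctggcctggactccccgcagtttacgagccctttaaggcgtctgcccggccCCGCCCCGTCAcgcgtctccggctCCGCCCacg
The motifs were the GC box spelled GGGCGG, the core of the cyclic AMP response element spelled TGACG, the TATA box spelled TATAAA and the E-box spelled CACGTG. The Unc13a window held 2 GC boxes and 1 response element core, and a box and the core adjoin but do not overlap in the first capital run. GC boxes were found in 30.3% and response element cores in 16.2% of 32851 promoter windows cut to 233 bases. The Baiap3 window held none of the 4 motifs, while among windows of 250 bases 32.7% held a GC box, 17.8% a response element core, 12.4% a TATA box and 6.02% the E-box. GC content was 64.4% in the Baiap3 window and 56.7% in that of Unc13a, and the medians over all windows of these lengths were 52.4% and 51.9%.

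Baiap3 and Doc2b had higher levels in each methylphenidate library than in any saline library, Unc13c had a higher mean with overlapping groups, and Unc13a, Unc13b, Doc2a and Rph3a differed little. None of the 7 genes passed the edgeR quasi-likelihood test at an adjusted p of 0.05 over all genes tested, where 5 of 18327 genes, or 0.0273%, passed. At an unadjusted p under 0.05 there were 3 of the 7 genes, all higher, where 7.51% of all genes tested lay under it and 4.2% were also higher. The groups did not overlap in 2 of the 7 genes, both higher, where they did not overlap in 13.5% of all genes tested and 6.97% were also higher. Since the genes were chosen with these values in view, nothing is read from the counts. Baiap3 and Doc2b stood at ranks 8 and 9 of all genes tested in order of p (edgeR adjusted p = 0.0703 and 0.0843). DESeq2, run as an alternative, called 2 of the 7 genes, Baiap3 and Doc2b, among 149 genes in all.

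**Figure D1:**
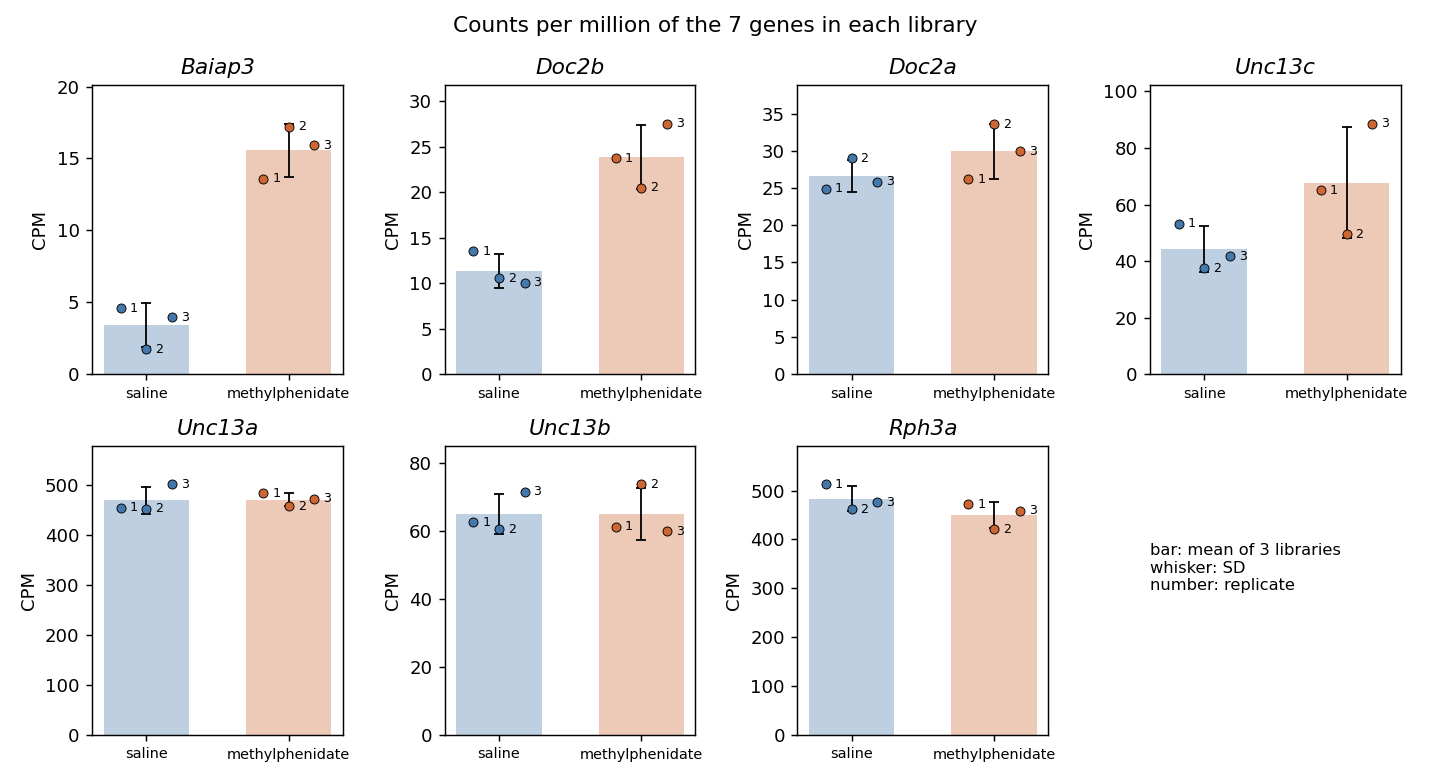
Each panel plots the CPM of 1 gene by lineage, with points for the 3 libraries of a group (the number is the replicate), bars for the mean and whiskers for the SD. The 3 methylphenidate libraries lie above the 3 saline libraries for Baiap3 and Doc2b, and the groups overlap for the other 5 genes.

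Baiap3 (ENSMUSG00000047507) was counted 121, 44 and 96 times in the saline and 328, 490 and 387 times in the methylphenidate libraries, replicates 1 to 3 in order. On the TMM-scaled scale these were 4.61, 1.72 and 3.97 CPM in the saline lineage and 13.6, 17.2 and 15.9 CPM in the methylphenidate lineage. The lowest methylphenidate library was 2.95 times the highest saline library. The means were 3.43 ± 1.52 and 15.6 ± 1.84 CPM (SD, n = 3 per group), a fitted log2 change of 2.18 (SE 0.30, 95% interval 1.51 to 2.85), or 4.54-fold. The saline libraries were the more scattered, with a coefficient of variation of 44.2% against 11.8% in the methylphenidate lineage, and saline replicate 2 was the low one. Without saline replicate 2 the log2 fold change was 1.86 (SE 0.18, edgeR adjusted p = 0.0208), the one library whose removal took Baiap3 past the threshold, and without each of the others it lay between 2.10 and 2.46 (edgeR adjusted p 0.0706 to 0.277).

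Doc2b (ENSMUSG00000020848), the Doc2 form also found outside the brain, where it acts in insulin secretion, was counted 354, 270 and 243 times in the saline and 572, 583 and 668 times in the methylphenidate libraries, in replicate order. These were 13.5, 10.6 and 10.1 CPM in the saline lineage and 23.7, 20.5 and 27.5 CPM in the methylphenidate lineage. The groups were apart by 1.52 times, the lowest methylphenidate over the highest saline library. The means were 11.4 ± 1.85 and 23.9 ± 3.52 CPM (SD, n = 3 per group), a fitted log2 change of 1.07 (SE 0.15, 95% interval 0.73 to 1.41), or 2.10-fold. It lay between 0.96 and 1.21 without any one library (edgeR adjusted p 0.0582 to 0.335).

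Doc2a (ENSMUSG00000052301), the form found mainly in brain, had 24.9, 29.0 and 25.8 CPM in the saline libraries and 26.2, 33.6 and 30.0 CPM in the methylphenidate libraries. The groups overlapped, with a fitted log2 change of 0.17 (SE 0.11, 95% interval -0.08 to 0.42), so a rise of more than 1.34-fold lay outside the interval. Within a library, which needs no scaling, the level per length of Doc2b was 0.315, 0.212 and 0.226 of that of Doc2a in saline replicates 1 to 3. It was 0.526, 0.355 and 0.534 in methylphenidate replicates 1 to 3. The ratio of the 2 genes therefore did not overlap between the lineages, though methylphenidate replicate 2, which had the highest Doc2a, came close to saline replicate 1. The size of these ratios depends on the transcript, since the second longest coding transcript of Doc2a has 0.862 kilobases against 2.54 for the longest and would put its saline level at 30.9 in place of 10.5 CPM per kilobase. Each gene has 1 length in all libraries, so the order of the libraries does not depend on it.

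Unc13a (ENSMUSG00000034799) encodes Munc13-1, the main priming factor of most excitatory synapses in the forebrain. It had 454.7, 452.5 and 501.1 CPM in the saline libraries and 483.3, 457.1 and 472.5 CPM in the methylphenidate libraries, and the methylphenidate values lay inside the saline range. The log2 fold change had an SE of 0.06 and a 95% interval of -0.14 to 0.15, so that differences beyond 1.11-fold up or to 0.908-fold down lay outside it. Of the 7 genes it was the one with the smallest scatter in the methylphenidate lineage, with a coefficient of variation of 2.80%.

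Unc13b (ENSMUSG00000028456) encodes Munc13-2, which has a brain form and a ubiquitous form. It had 62.5, 60.5 and 71.5 CPM in the saline libraries and 61.2, 73.6 and 59.9 CPM in the methylphenidate libraries. Each group had 1 high library, and the means were 64.8 ± 5.87 and 64.9 ± 7.58 CPM (SD, n = 3 per group), with a 95% interval of the log2 fold change from -0.22 to 0.23. The fitted log2 changes of Unc13a and Unc13b were 0.0046 and 0.0025, and their sign differed between alternatives. Counts per gene do not tell the 2 forms of Unc13b apart.

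Unc13c (ENSMUSG00000062151) encodes Munc13-3, best known from the cerebellum. It had 53.3, 37.4 and 41.8 CPM in the saline libraries and 65.0, 49.5 and 88.6 CPM in the methylphenidate libraries, so that methylphenidate replicate 2 fell below saline replicate 1. The means were 44.2 ± 8.18 and 67.7 ± 19.7 CPM (SD, n = 3 per group), a fitted log2 change of 0.61 (SE 0.20, 95% interval 0.17 to 1.06, edgeR adjusted p = 0.534). Methylphenidate replicate 3 carried much of that difference, as the log2 fold change was 0.37 (SE 0.17) without it, and it was 0.80 (SE 0.17) without methylphenidate replicate 2.

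Rph3a (ENSMUSG00000029608) had 512.6, 462.0 and 476.5 CPM in the saline libraries and 471.9, 420.9 and 459.0 CPM in the methylphenidate libraries. It was the one gene of the 7 with a lower methylphenidate mean, with a fitted log2 change of -0.10 (SE 0.07, 95% interval -0.26 to 0.05), and its groups overlapped.

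**Figure D2:**
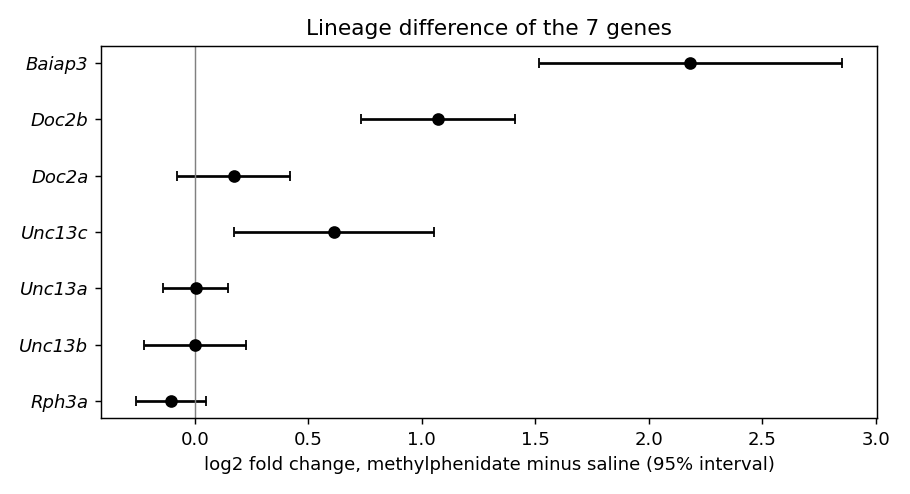
The log2 fold change of each of the 7 genes, methylphenidate minus saline, is plotted as a point with its 95% interval from the edgeR fit over all 6 libraries. The intervals of Baiap3, Doc2b and Unc13c lie above 0 before adjustment for the number of genes, and those of the other 4 genes hold 0.

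Levels of different genes were set side by side only per length, as CPM per kilobase of the longest coding transcript in GENCODE M21. In the saline lineage Rph3a was highest at 116.6 ± 6.28, followed by Unc13a at 45.8 ± 2.68 and Doc2a at 10.5 ± 0.845 CPM per kilobase (SD, n = 3). Unc13c at 5.02 ± 0.930 and Unc13b at 4.39 ± 0.398 overlapped in their libraries, Doc2b followed at 2.60 ± 0.425, and Baiap3 was lowest at 0.739 ± 0.327. In the methylphenidate lineage Rph3a, at 108.6 ± 6.38, and Unc13a, at 45.9 ± 1.28, kept their places, Doc2a stood at 11.8 ± 1.46 and Unc13c at 7.70 ± 2.24, and Baiap3 was again lowest at 3.35 ± 0.396, while Doc2b at 5.48 ± 0.807 stood above Unc13b at 4.40 ± 0.514 CPM per kilobase, with overlapping libraries. The place of Unc13b, like the level of Doc2a, depends on its transcript, a choice of length made after the data were seen, because its longest coding transcript has 14.8 kilobases and the next 6.57, with which its saline level would be 9.86 CPM per kilobase.

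**Figure D3:**
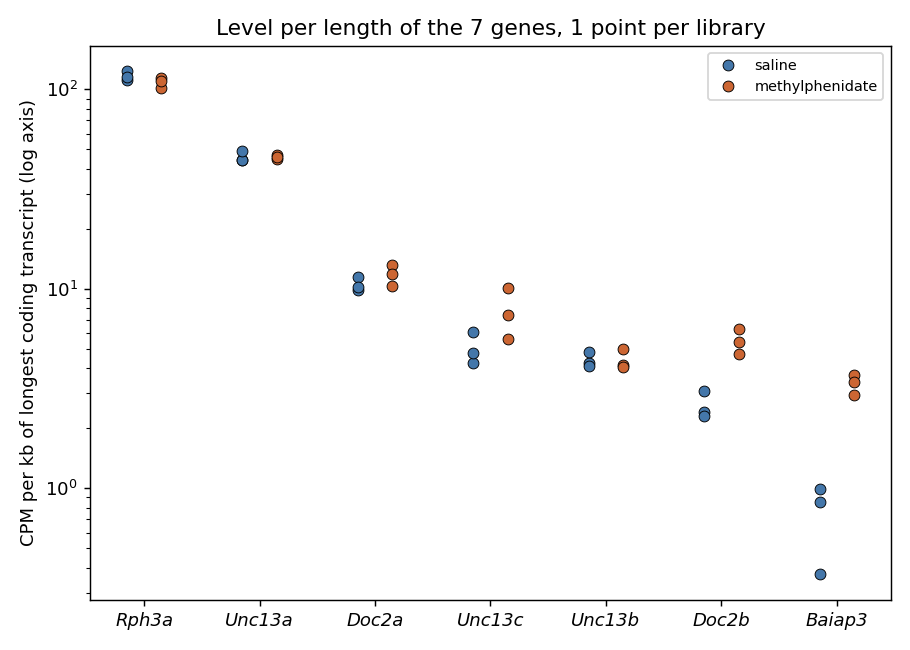
The level of each gene in CPM per kilobase of the longest coding transcript is plotted on a log axis, with 1 point per library and genes ordered by their saline mean. The genes span from 0.370 for Baiap3 to 123.5 for Rph3a among the saline libraries, and the vertical gap between lineages is widest for Baiap3.

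Of the level per length of the 3 Munc13 genes together, Unc13a made up 82.9 ± 1.56% in saline libraries and 79.2 ± 2.33% in methylphenidate libraries (SD, n = 3 per group). Unc13c made up 9.11 ± 1.71% and 13.2 ± 3.30%, and Unc13b 7.95 ± 0.293% and 7.62 ± 1.24%. By replicate, Unc13c made up 11.1, 8.11 and 8.13% in the saline and 12.6, 10.2 and 16.7% in the methylphenidate libraries, so the groups overlapped. Baiap3 stood at 0.0224, 0.00839 and 0.0175 of the level of Unc13a per length in the saline libraries and at 0.0621, 0.0831 and 0.0745 in the methylphenidate libraries, without overlap.

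The other genes of vesicle docking, priming and release were taken as 8 lists with 113 genes, of which 110 were tested. None passed the edgeR adjusted threshold, and 4 were higher and 13 lower at an unadjusted p under 0.05, where 769 were higher and 607 lower among all genes tested. Of the 110 genes, 44 lay above 0 and 66 below, with a median log2 fold change of -0.03, against 0.00 over all genes tested. No gene of these lists had a fitted log2 change of 1 or more in either direction, a size that Baiap3 and Doc2b both had. A fitted log2 fold change of 1 or more, counted upward only, was found in 1.60% of all genes tested. Since Baiap3 and Doc2b were chosen with their values in view, nothing is read from this contrast. DESeq2 called 5 of the list genes, with Pcsk1n higher and Sytl2, Snap25, Cadps2 and Syt2 lower.

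The fusion machinery on which Munc13 acts had mostly small differences. Among 15 genes of the SNARE proteins and their partners, 10 lay below 0, with a median of -0.03. Snap25, a plasma membrane SNARE, had 2595 ± 124.3 CPM in the saline and 2082 ± 171.4 CPM in the methylphenidate lineage (log2 fold change -0.32, SE 0.08, edgeR adjusted p = 0.307), and Vamp1, a vesicle SNARE, had a fitted log2 change of -0.29 (SE 0.08). The summed level of these genes was 5655 to 5842 CPM in the saline and 4990 to 5250 CPM in the methylphenidate libraries, without overlap. By group mean Snap25 was the largest part of this sum. Log2 CPM centred on each gene and averaged over the list was -0.0264 to 0.0657 in the saline libraries. It was -0.063 to 0.0132 in the methylphenidate libraries, with overlap. Of 13 tested SNARE regulators, 10 lay below 0 with a median of -0.08. Among them Prrt2, Cplx1, which encodes a complexin, and Napa, which encodes the alpha-SNAP of SNARE disassembly, had fitted log2 changes of -0.23 (SE 0.09), -0.14 (SE 0.06) and -0.16 (SE 0.07).

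The active zone scaffold, which holds Munc13 in place through RIM proteins, had no gene of 13 at an unadjusted p under 0.05, with a median of -0.03. Its RIM gene Rims2 had a fitted log2 change of -0.10 (SE 0.07), and the liprin genes Ppfia2 and Ppfia1 had -0.14 (SE 0.10) and 0.11 (SE 0.09). Of 14 synaptotagmins, the other calcium sensors of release, 8 lay above 0 and 6 below, with a median of 0.01. Syt2 and Syt4 had fitted log2 changes of -0.38 (SE 0.10) and -0.25 (SE 0.08), and Syt10, with means of 2.83 and 5.45 CPM, had 0.95 (SE 0.37).

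Of 15 tested genes of Rab3, Rab27 and their effectors, the group to which rabphilin belongs, 8 lay above 0 and 7 below. Sytl2, a Rab27 effector gene, had 118.2 ± 9.61 CPM in the saline and 88.9 ± 3.12 CPM in the methylphenidate lineage (SD, n = 3 per group), and its log2 fold change was -0.41 (SE 0.07, edgeR adjusted p = 0.174). Rab3c had a fitted log2 change of 0.51 (SE 0.15) and Sytl1 one of -0.61 (SE 0.28).

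Of 17 genes of dense core vesicles, the organelle on which Baiap3 acts, 7 lay above 0 and 10 below, with a median of -0.02. Pcsk1n, which encodes an inhibitor of a prohormone convertase, had a fitted log2 change of 0.30 (SE 0.07, edgeR adjusted p = 0.228), and Cadps2, a priming factor gene of these vesicles that also carries a MUN domain, had -0.38 (SE 0.09, edgeR adjusted p = 0.309). Chgb, a granin cargo gene, had -0.17 (SE 0.06). Of 11 tested genes of retrieval from endosome to Golgi, 8 lay below 0, with fitted log2 changes of -0.15 (SE 0.07) for Rab6a, -0.09 (SE 0.06) for Stx6 and -0.09 (SE 0.08) for Vps54. Of 12 genes of presynaptic calcium channels and calmodulin, which binds Munc13, 4 lay above 0 and 8 below. Cacna1e, Cacnb4 and Calm2 had fitted log2 changes of 0.21 (SE 0.06), -0.29 (SE 0.09) and -0.15 (SE 0.06).

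**Figure D4:**
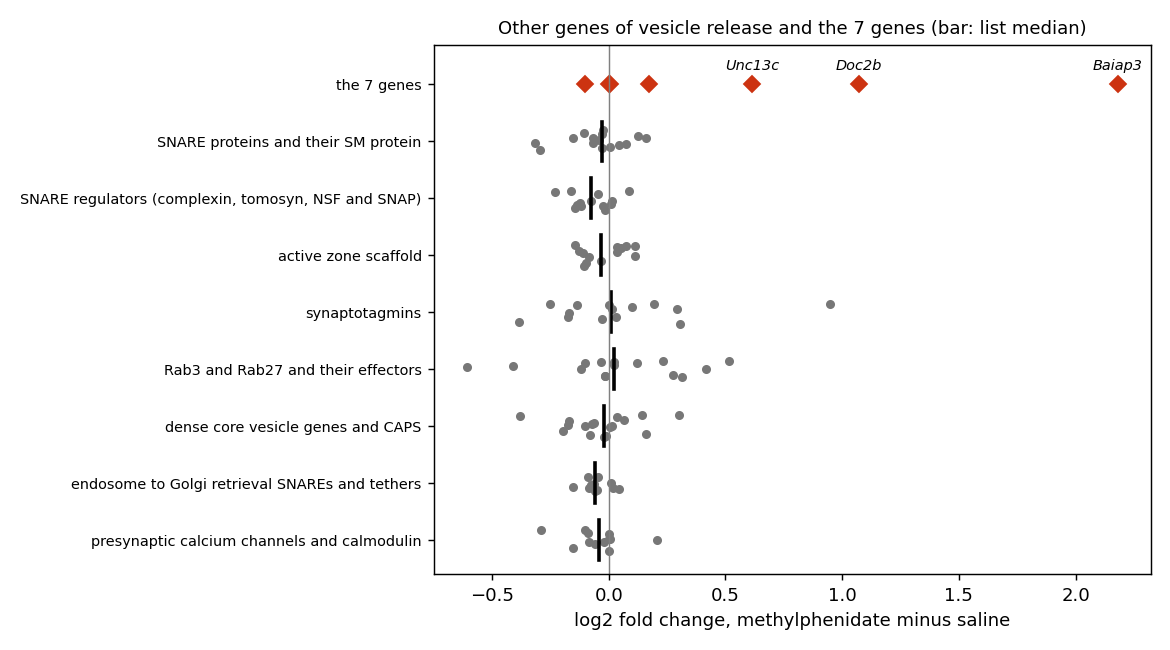
Grey points give the log2 fold change, methylphenidate minus saline, of each tested gene in the 8 lists of vesicle release genes, black bars the list medians, and red diamonds the 7 genes. List medians lie between -0.08 and 0.02, and no grey point reaches 1 or -1.

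Most tested markers of striatal projection neurons and of hypothalamus and basal forebrain had higher values in the methylphenidate lineage, and are given beside Baiap3, Doc2b and Unc13c. The lists of amygdala and septum, thalamus and choroid plexus had median log2 fold changes of 0.14, 0.22 and -0.61. Summed levels of the amygdala and septum list overlapped, at 41.9 to 60.5 CPM in the saline and 38.2 to 57.5 CPM in the methylphenidate libraries. In both lineages Prlr had the largest SD of that list, at 9.32 ± 8.10 CPM in the saline and 5.02 ± 4.57 CPM in the methylphenidate lineage. Within each lineage the libraries had the same order in this sum as in the choroid plexus sum. The overlap is therefore not read as a statement about the amygdala. In bulk tissue, more cells of a type and more RNA per cell cannot be told apart. Of 12 markers of striatal projection neurons, 11 were tested, 10 of them above 0, with a median log2 fold change of 0.98, and 8 were higher at an unadjusted p under 0.05 but none passed the edgeR adjusted threshold. The groups did not overlap in 5 of the 11, all higher. Over all genes tested, 4.2% were higher at an unadjusted p under 0.05 and 6.97% were higher without overlap. As the marker lists were chosen with earlier results known, nothing is read from such counts. Summed over the list, saline replicates 1 to 3 had 402.1, 343.2 and 324.0 CPM, and methylphenidate replicates 1 to 3 had 622.0, 374.4 and 752.7 CPM. Isl1 alone of them was at 0 in a library, saline replicate 3. The phosphodiesterase gene Pde10a had a fitted log2 change of 1.17 (SE 0.24), Drd1 0.98 (SE 0.21) and Six3 3.02 (SE 0.67).

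Of 18 hypothalamic and basal forebrain markers, 11 were tested, 10 of them above 0, with a median log2 fold change of 1.94, and 5 were higher at an unadjusted p under 0.05 with none past the edgeR adjusted threshold. The groups did not overlap in 4 of the 11, all higher. Over all genes tested, 4.2% were higher at an unadjusted p under 0.05 and 6.97% were higher without overlap. The summed level of the list was 27.0 to 32.3 CPM in the saline libraries. It was 37.1, 36.5 and 60.9 CPM in methylphenidate replicates 1 to 3, without overlap. By group mean its largest part was Lhx6, the one tested gene below 0, at 22.5 CPM in the saline and 20.3 CPM in the methylphenidate lineage. Pomc was the next largest, at 1.98 ± 0.553 CPM in the saline and 7.63 ± 10.2 CPM in the methylphenidate lineage, with overlapping groups. Log2 CPM centred on each gene was also averaged over the 11 tested genes. In replicate order it was -0.376, -1.22 and -0.5 in the saline and 0.69, 0.26 and 1.15 in the methylphenidate libraries. The orexin gene Hcrt and Sim1 were at 0 in all 3 saline libraries and had at most 4 counts elsewhere. Avp, Otp, Nkx2-1, Gbx1 and Calcr were at 0 in 1 or 2 saline libraries and in no methylphenidate library, Oxt and Gal were at 0 in libraries of both lineages, and Sim1 was also at 0 in methylphenidate replicate 3. The hormone gene Trh had a fitted log2 change of 3.05 (SE 0.59), and 3 genes of cholinergic neurons, Slc5a7, Slc18a3 and Chat, had 2.13 (SE 0.45), 2.45 (SE 0.55) and 1.99 (SE 0.74).

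Methylphenidate replicate 2 had the lowest striatal sum and the lowest hypothalamic and basal forebrain sum of its lineage. Its striatal sum lay within the saline range, but its mean of centred log2 CPM over the striatal list was -0.03, above the saline libraries at -0.94 to -0.15, and its hypothalamic and basal forebrain sum was also above theirs. Its Unc13c lay within the saline range at 1.12 times the saline mean, its Doc2b stood at 1.80 times and its Baiap3 at 5.02 times the saline mean, the highest Baiap3 of any library. Methylphenidate replicates 1 and 3, with the higher striatal sums, had 3.96 and 4.64 times the saline mean of Baiap3, 2.09 and 2.42 times that of Doc2b, and 1.47 and 2.01 times that of Unc13c. Among the methylphenidate libraries Doc2b and Unc13c thus had the same order as both the striatal and the hypothalamic and basal forebrain sums, replicate 3 then 1 then 2, and Baiap3 did not. The hypothalamic and basal forebrain sums of replicates 1 and 2 were close, at 37.06 and 36.46 CPM. Among the saline libraries Doc2b had the order of both sums, replicate 1 then 2 then 3. Unc13c and Baiap3 there had the order of the centred hypothalamic and basal forebrain values, replicate 1 then 3 then 2. With 3 libraries per lineage, nothing is read from these orders. The part of striatal or hypothalamic tissue in the differences of Doc2b, Unc13c and Baiap3 was not tested.

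**Figure D5:**
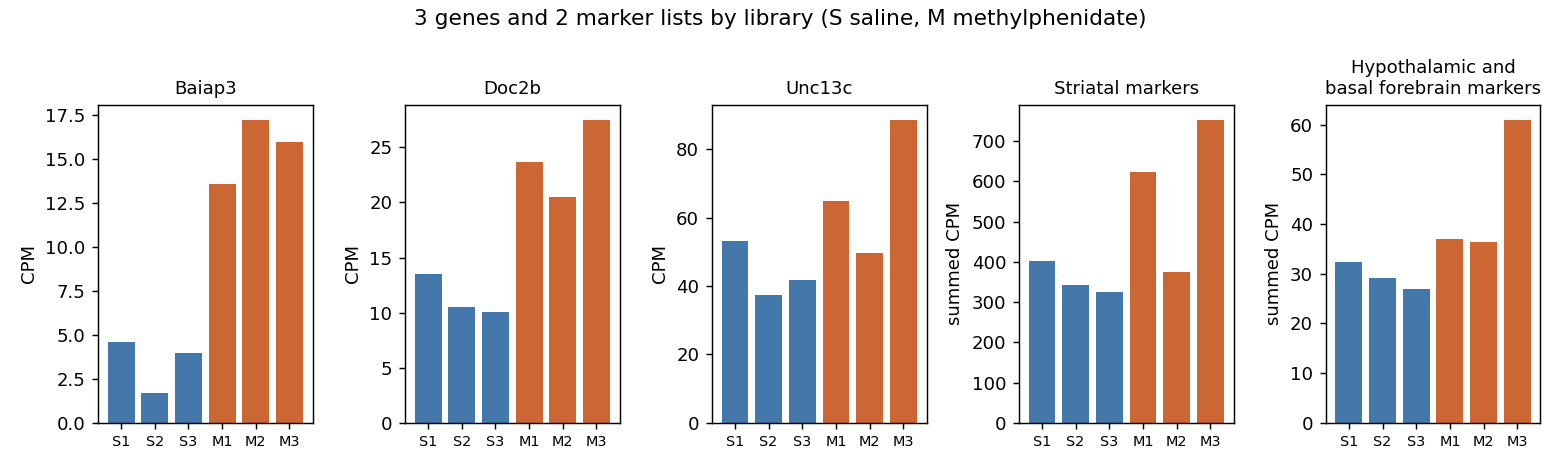
Bars give the CPM of Baiap3, Doc2b and Unc13c and the summed CPM of the striatal and the hypothalamic and basal forebrain marker lists in saline libraries S1 to S3 and methylphenidate libraries M1 to M3. In M2 the striatal sum is 374.4 CPM, inside the saline range, the hypothalamic and basal forebrain sum is 36.5 CPM, above the 3 saline libraries, and Baiap3 is at 17.2 CPM, above all other libraries.

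Genes with the profile nearest to that of each of the 2 most variable members were sought over the 6 libraries among 13684 named genes with a mean of at least 1 CPM. Nearness was the root mean square difference of log2 CPM after each gene was centred on its own mean. It uses the same libraries as the difference between lineages, and is a description. Nearest to Doc2b were Lypd1, which encodes a modulator of nicotinic receptors, at 0.125, the dopamine receptor gene Drd1 at 0.168, Dach1 at 0.173, Traip at 0.175 and Necab2, which encodes a neuronal calcium-binding protein, at 0.183 on the log2 scale. Lypd1 had means of 65.5 and 132 CPM in the saline and methylphenidate lineages. Nearest to Baiap3 were the potassium channel gene Kcna5 at 0.482, Magel2 at 0.529, H2-T23 at 0.532, Dlk1 at 0.550 and Trh at 0.573, all with low levels, the highest group mean being 4.91 CPM for H2-T23. The level of H2-T23 is uncertain, because reads can be split among its close paralogs. Baiap3 and Doc2b differed from each other by 0.733. The 5 genes listed for each were picked as the nearest, with members left out, so their smaller values say nothing about how alike the 2 members are. The measure also grows with the size of the difference between lineages, which was unlike in the 2 genes.

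The genes beside the members were read from GENCODE M21, an annotation of GRCm38, while the counts use GRCm39. It serves here only for which genes are neighbours and for the transcript lengths behind the levels per kilobase. These lengths may differ from those of the annotation used in counting, which was not given. Tsr3 overlaps Baiap3 on the opposite strand and had 13.3 ± 0.576 and 13.8 ± 1.20 CPM in the saline and methylphenidate lineages (log2 fold change 0.06, SE 0.12). Gnptg, a coding gene next to it, had a fitted log2 change of 0.13 (SE 0.07). Rph3al, a relative of rabphilin next to Doc2b, had 0.42 (SE 0.37) at means of 0.904 and 1.21 CPM, Ywhae on the other side had -0.02 (SE 0.06), and Gm12339, which overlaps Doc2b on the opposite strand, had 0 counts in the saline and 6 in the methylphenidate libraries. Ino80e overlaps Doc2a and Colgalt1 overlaps Unc13a on the opposite strand, with fitted log2 changes of 0.07 (SE 0.08) and 0.11 (SE 0.07). The kit is directional, but whether strand was used in counting is not stated in the labels, so reads of such overlapping pairs cannot be told apart.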

How the data were processed

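Poly(A) RNA was made into libraries with a kit that keeps strand, per the labels' protocols. Named without roles in the submitters' processing notes are bcl2fastq 2.19, fastp 0.23.4, HISAT2 2.2.1, StringTie 2.2.1 and GRCm39. Not given in the sources used here were the annotation and the counting step. The authors deposited 1 table of raw counts, in whole numbers per gene and library.

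The counts were fitted with edgeR 4.0.16 in R 4.3.3 (filterByExpr, TMM, glmQLFit and glmQLFTest, two-sided, group as the only term, Benjamini-Hochberg adjustment over 18327 genes, threshold 0.05). The SE is the log2 change over the root of the F statistic, and 95% intervals use the fit's degrees of freedom. Log2 CPM had a prior count of 2. As no label names separate litters, p-values measure only the spread between samples. Alternatives were DESeq2 1.42.0, limma-voom (limma 3.58.1), other scalings and filters, a replicate block, and leaving out each library.

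The members, the gene lists and the tests were chosen with earlier results of these data known. All members are named, and in each vesicle list the up to 3 genes of smallest p, in a marker list up to 4, and 5 nearest profiles with informative symbols for each of 2 members. Slc17a7 is named as a tissue check. Results for some genes that this rule names are not reported here.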

Additional observations from a re-analysis of the deposited data

How the results depend on the processing

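The RLE and upper-quartile scalings, the stricter filter, limma-voom and library sizes without mitochondrially encoded genes kept the count of genes past the threshold within 1.5 times of 5. The count was 10 with total counts only, 3 with no filter on low counts, 149 with DESeq2 (104 higher and 45 lower), 2 with the replicate block, and 2 to 26 without any one library (3 and 8 without saline replicates 2 and 3, and 26, 12 and 2 without methylphenidate replicates 1, 2 and 3). The count among the 7 genes, 0 by edgeR, was 2 with total counts only (Baiap3 and Doc2b, edgeR adjusted p = 0.0491 for each), 2 with DESeq2 (adjusted p 2.51e-12 and 6.62e-07), and 0 to 1 without any one library. DESeq2 called 5 genes of the vesicle release lists, and no other alternative called any. The log2 fold changes of Doc2a, Doc2b, Baiap3, Unc13c and Rph3a kept their direction in all 15 alternatives. Those of Unc13a and Unc13b reversed at values near 0: with DESeq2 they were -0.00139 and -0.00277, Unc13b was -0.000215 with the replicate block, and without any one library they ran from -0.0212 to 0.0537 and from -0.099 to 0.0781. The cause of these shifts was not tested. The replicate numbers are shared by both groups in the labels without a stated pairing, and same-numbered libraries did not deviate together over genes (r = -0.04, 0.09 and -0.02), nor did every library correlate best with its own number. The replicate block changed no call among the 7 genes. Depth limits Baiap3 most, at 44 to 121 counts in the saline libraries.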

Other observations

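Doc2g and Unc13d, relatives of the 7 genes, were chosen after their values were seen. Doc2g, the Doc2 form that lacks calcium-dependent lipid binding, was counted 73, 44 and 99 times in the saline and 52, 43 and 53 times in the methylphenidate libraries. Its groups overlapped, with a fitted log2 change of -0.56 (SE 0.35, 95% interval -1.34 to 0.23), and it did not share the higher values of Doc2b. Unc13d, the Munc13 gene of cytotoxic granule release, had 25, 19 and 29 counts in the saline and 13, 39 and 42 counts in the methylphenidate libraries, with a fitted log2 change of 0.33 (SE 0.47). These low counts leave wide intervals.

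The other 10 marker lists of cell types and regions had no gene past the edgeR threshold, and their medians lay between -0.61, for the choroid plexus, and 0.22, for the thalamus. The choroid plexus sum ran from 45.8 to 666.9 CPM in the saline and from 26.6 to 508.9 CPM in the methylphenidate libraries. The cortical excitatory list had 9 of 11 genes below 0 with a median of -0.17. Inhibitory neuron markers had a median of 0.02, with sums of 1125 to 1195 CPM in the saline and 1148 to 1160 CPM in the methylphenidate libraries.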
